A study of Mus musculus with 8 samples.

Results

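The interferon-induced proteins with tetratricopeptide repeats, the Ifit family, were followed here through 4 of their genes, Ifit1, Ifit2, Ifit3 and Ifit1bl1, which were found by symbol among the 27998 genes counted in each of 4 single-cell RNA-seq libraries of mouse bone marrow. The 16 mice were wild type and 12 to 14 weeks old. A group of 4 control mice received 100 µl of PBS, and 3 groups of 4 mice received 50000 IU of recombinant mouse IFNα for each 20 g of body weight under the skin and were sampled after 3, 24 or 72 h. From every mouse, LK cells (Lin-, Kit+, the stem and progenitor compartment) were sorted and mixed with additional LK CD150+ CD48- CD34- cells, a gate enriched for hematopoietic stem cells (HSCs), so that the share of stem cells was set by the sort. The cells of each mouse carried a hashtag antibody, and the 4 mice of a group shared 1 library, so time point and library cannot be told apart and p-values measure the spread between mice within libraries.

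Type I interferon binds the receptor IFNAR1 and IFNAR2, whose kinases TYK2 and JAK1 lead to the activation of ISGF3, a transcription factor complex that binds interferon-stimulated response elements in the promoters of interferon-stimulated genes (ISGs). Ifit genes are among the most strongly induced ISGs in many cells. IFIT proteins are cytoplasmic and built of tetratricopeptide repeats. IFIT1 recognises RNA whose cap lacks ribose methylation, a mark of many viral RNAs, and blocks its translation, while IFIT2 and IFIT3 associate with other family members. Ifit1bl1 is a gene related to Ifit1.

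Of 13310 barcodes, 10046 cells were kept, of which the control library gave 2474 and the libraries of 3, 24 and 72 h gave 1661, 3462 and 2449. The 3 h library was the shallowest, with a median of 12017 UMIs (unique molecule counts) per cell against 14763 to 18964.5 in the others. The kept cells of a mouse held between 1102706 and 26446327 UMIs, and the lowest of these totals was that of control mouse 4, which contributed 58 cells. Transcripts of Kit were detected in 63.3% to 81.4% of the kept cells of a library and those of Cd34 in 60.7% to 70.0%. Defining markers of other cells were rare, with Cd3e in at most 0.162% of the cells of any library, Cd79a in at most 0.404% and Siglech in at most 0.283%, while Cd79b, which with Cd79a marks B cells, was in 31.8% to 52.7%. Only 3 kept barcodes occurred in more than 1 library.

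The 4 genes lie together on chromosome 19 (mm10, the GRCm38 build). Ifit2 spans positions 34550694 to 34576419 on the plus strand, Ifit3 positions 34583531 to 34588731 on the plus strand, Ifit1bl1 positions 34592891 to 34601956 on the minus strand and Ifit1 positions 34640871 to 34650009 on the plus strand. The related genes Ifit3b and Ifit1bl2 lie between Ifit1bl1 and Ifit1. These 6 genes fill an interval of 99.3 kb, in which 0 other genes of those counted lie in full. Since the library reads the 3' ends of transcripts, the last 500 bases of each transcript were compared in windows of 60 bases. Ifit1 and Ifit2 shared 0% of these windows with another Ifit transcript, while Ifit3 shared 12.9% with Ifit3b and Ifit1bl1 shared 4.76% with Ifit1bl2, so the counts of the latter genes are partly uncertain.

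Because the members moved together after IFNα, their promoters are shown, as the 250 bases before the transcription start in the RefSeq annotation (GRCm38.p6), 5' to 3' on the strand of the gene. Capitals mark matches to GAAANNGAAA or, on the other strand, TTTCNNTTTC, the core of the interferon-stimulated response element. The windows lie at chr19:34640639-34640888 (plus strand) for Ifit1, chr19:34583279-34583528 (plus) for Ifit3, chr19:34601969-34602218 (minus) for Ifit1bl1 and chr19:34550444-34550693 (plus) for Ifit2.
Ifit1: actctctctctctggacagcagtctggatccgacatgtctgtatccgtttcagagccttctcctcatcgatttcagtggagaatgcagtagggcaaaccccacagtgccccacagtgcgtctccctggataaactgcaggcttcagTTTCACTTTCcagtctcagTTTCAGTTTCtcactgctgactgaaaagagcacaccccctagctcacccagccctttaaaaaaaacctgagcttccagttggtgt
Ifit3: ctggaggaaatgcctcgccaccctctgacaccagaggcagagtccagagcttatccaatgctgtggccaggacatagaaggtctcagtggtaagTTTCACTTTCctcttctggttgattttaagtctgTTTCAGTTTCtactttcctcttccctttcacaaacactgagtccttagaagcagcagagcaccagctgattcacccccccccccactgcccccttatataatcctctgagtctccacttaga
Ifit1bl1: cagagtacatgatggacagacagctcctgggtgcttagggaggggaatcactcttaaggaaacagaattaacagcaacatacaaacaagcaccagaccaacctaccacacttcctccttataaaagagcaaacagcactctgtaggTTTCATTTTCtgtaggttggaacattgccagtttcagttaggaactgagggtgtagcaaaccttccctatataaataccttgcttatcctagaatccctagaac
Ifit2: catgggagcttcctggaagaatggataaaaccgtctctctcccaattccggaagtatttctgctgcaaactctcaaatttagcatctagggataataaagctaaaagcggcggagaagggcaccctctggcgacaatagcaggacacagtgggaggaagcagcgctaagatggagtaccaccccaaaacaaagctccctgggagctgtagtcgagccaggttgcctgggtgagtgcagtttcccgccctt

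The Ifit1 window held 2 matches, at bases -104 to -95 and -85 to -76 from the start, and the Ifit3 window held 2, at -156 to -147 and -122 to -113. Ifit1bl1 had 1 match in this window, at -104 to -95, and 1 in the window of a second annotated start, chr19:34599428-34599677. In Ifit2 these letters occurred in neither the window shown nor that of a second start, chr19:34550838-34551087, which says only that they are not in these bases. Of all 32851 promoter windows of this length, 2.98% held a match. Windows were matched for only 409 of the 628 gene symbols called higher at 3 h and 9086 of the 12041 tested. At least 1 match lay in 68 of these 409 (16.6%) and in 235 of 8677 tested genes not called higher (2.71%). The called set includes Ifit genes, the sets cover only genes with a window, and the difference was not tested. A match is a description of sequence and not of binding. The Ifit3 window and that of Ifit3b were identical at 86.2% of the 218 bases compared without gaps, while the windows of Ifit1 and Ifit3 were identical at 33.5% of 248 bases in their best ungapped alignment.

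All 4 members were higher at 3 h than in control mice and lower again at 24 h. Counts were summed over the kept cells of each mouse, given as CPM (UMIs of a gene scaled to a common total) and tested with edgeR's quasi-likelihood test over 12042 genes, and a gene was called where its p, adjusted by Benjamini-Hochberg, was under 0.05 and its log2 fold change exceeded 1 in size. At 3 h 5.22% of all tested genes were called higher and 1.68% lower. In such sums a change in the mix of cells and a change per cell cannot be told apart, and cells of like type are compared further on.

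Ifit1, the sensor of incompletely methylated caps, was at 3.58, 2.85, 4.70 and 13.6 CPM in control mice 1 to 4. Its levels 3 h after IFNα were 441, 465, 418 and 369 CPM. The groups did not overlap, and the rise was 118-fold (log2 fold change 6.88, SE 0.15, edgeR adjusted p = 3.37e-20). After 24 h Ifit1 was at 14.3, 20.0, 13.4 and 17.8 CPM, of which the value of mouse 3 alone lay below that of control mouse 4, and after 72 h at 3.27, 2.87, 2.54 and 4.03 CPM, within the range of the controls except for mouse 3. The gene was called higher at 24 h (2.09, SE 0.18, edgeR adjusted p = 1.25e-08), and at 72 h the difference from control was -0.30 on the log2 scale (SE 0.27, edgeR adjusted p = 0.405).

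Ifit3, whose protein associates with other IFITs, was at 1.77, 0.349, 1.59 and 13.6 CPM in control mice 1 to 4 and at 248, 294, 279.5 and 237 CPM at 3 h. The rise was 192-fold (log2 7.58, SE 0.22, edgeR adjusted p = 5.5e-18), with no overlap of the groups. At 24 h the 4 mice were at 4.58, 5.94, 6.48 and 7.49 CPM, above 3 of the control mice and below control mouse 4. This was called higher (2.04, SE 0.32, edgeR adjusted p = 6.42e-05), a call that DESeq2 did not make, with a log2 fold change of 0.84 and an adjusted p of 0.447, the highest of 24 alternatives whose adjusted p otherwise reached down to 1.76e-17. At 72 h Ifit3 was at 0.228, 0.230, 0.362 and 0.295 CPM, 12 UMIs in all, and was the only member called lower than in control (-2.39, SE 0.73, edgeR adjusted p = 0.0134). The gene passed the filter on low counts only through the 3 h and 24 h mice, so this call is a description. Control mouse 2 lay within the range of the 72 h mice and the other control mice above it.

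Ifit1bl1 was close to the limit of detection in control mice, at 0.107, 0.175, 0.109 and 1.81 CPM from 9 UMIs in all. It reached 42.6, 50.1, 58.9 and 40.7 CPM at 3 h, and all 4 mice lay above the control range. The log2 fold change was 8.27 (SE 0.31, edgeR adjusted p = 4.43e-16), and its size rests on the 9 control UMIs. Ifit1bl1 passed the filter on low counts only through treated mice, so its calls are a description. At 24 h it was at 0.751, 2.50, 1.17 and 2.0 CPM, which was called higher (3.36, SE 0.52, edgeR adjusted p = 4.83e-05), although the range overlapped that of the controls at mouse 4. At 72 h the values of 0.152, 0.575, 0.362 and 0.295 CPM came from 14 UMIs and the difference from control was 0.96 (SE 0.84, edgeR adjusted p = 0.393).

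Ifit2, which was at 5.35, 5.59, 4.81 and 0.907 CPM in control mice 1 to 4, had the smallest fold change of the members at 3 h. It rose to 67.9, 88.5, 89.8 and 68.3 CPM, 17.0-fold (log2 4.09, SE 0.14, edgeR adjusted p = 6.58e-17), without overlap. At 24 h it was at 6.83, 9.38, 7.23 and 9.73 CPM, above all control mice, and its adjusted p passed the threshold while its log2 fold change of 0.74 (SE 0.16, edgeR adjusted p = 0.00125) did not. At 72 h it was at 7.16, 5.98, 7.07 and 6.98 CPM, again above all control mice, with a log2 fold change of 0.43 (SE 0.18, edgeR adjusted p = 0.0637).

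**Figure D1:**
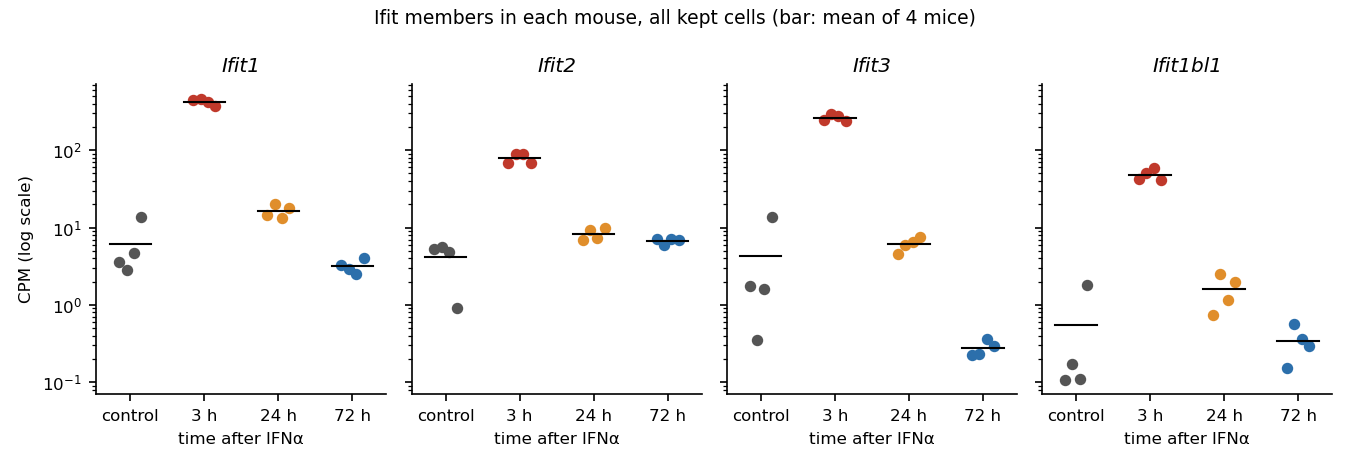
Level of each Ifit member in CPM on a log axis in the 4 mice of each group (points) over all kept cells, with the mean of 4 mice as a bar. The 3 h mice stand above all others in every panel, control mouse 4, with 58 cells, lies apart from the other control mice, and Ifit3 is lowest at 72 h, between 0.228 and 0.362 CPM.

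The members thus numbered 4 of 4 called higher at 3 h, 3 of 4 after 24 h (1.46% of all tested genes) and 0 of 4 after 72 h (1.7% of all tested genes), when 1 was called lower (1.16%). Ifit3 and Ifit1bl1 did not pass the filter on low counts through the control mice alone. Their part in these counts and in those below is thus a description. At 72 h 5521 of the 12042 tested genes had an unadjusted p under 0.05 in either direction. Among the members 1 was higher at this p (Ifit2) and 1 lower (Ifit3), which says nothing particular to the family. DESeq2 and edgeR's likelihood ratio test likewise called 0 members higher at 72 h. From 3 h to 24 h all 4 were called lower, against 2.93% of tested genes, with log2 fold changes of -4.79 for Ifit1, -3.35 for Ifit2, -5.54 for Ifit3 and -4.91 for Ifit1bl1. From 24 h to 72 h Ifit1 (-2.39), Ifit3 (-4.43) and Ifit1bl1 (-2.40) were called lower, against 0.648% of tested genes (0.756% in either direction), while Ifit2 differed by -0.31 (edgeR adjusted p = 0.223). These contrasts share mice with the earlier ones. Without control mouse 4 every call named here was the same, and the 3 h log2 fold changes were 6.97 for Ifit1, 4.06 for Ifit2, 7.86 for Ifit3 and 8.59 for Ifit1bl1, while that of Ifit3 at 72 h was -2.12 (edgeR adjusted p = 0.00592). Scaling by library size alone moved the median of all genes at 3 h from -0.03 to -0.18 on the log2 scale and changed the direction of no member.

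The 2 Ifit genes of the locus that are not members also rose. Neither passed the filter on low counts through the control mice alone, so their calls are a description. Ifit3b, a close copy of Ifit3, went from a control median of 0.590 CPM to 90.2 CPM at 3 h (log2 7.14, SE 0.25, edgeR adjusted p = 1.94e-16), and Ifit1bl2, with 39 UMIs at 3 h against 4 in control, had a log2 fold change of 4.48 (SE 0.54, edgeR adjusted p = 6.6e-07). At 72 h Ifit3b held 2 UMIs and was called lower than in control (-3.61, SE 1.11, edgeR adjusted p = 0.0143), a call that was lost without control mouse 1 (-2.0, edgeR adjusted p = 0.189) and without mouse 1 of the 72 h group (-3.16, edgeR adjusted p = 0.0523).

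Of the genes that flank the cluster, 1 was called at 3 h. Among the 5 nearest of the counted genes on each side, 5 had too few UMIs to be tested (Acta2, Ch25h, Gm26902, Gm5248 and A830019P07Rik). Lipa, the lysosomal acid lipase gene 23.2 kb away, had a log2 fold change of -0.03 (SE 0.09) at 3 h, Fas, a death receptor gene, 0.44 (SE 0.30), Pank1 -0.07 (SE 0.10) and Kif20b -0.31 (SE 0.06), and none of these was called. Slc16a12, a monocarboxylate transporter family gene 18.4 kb from Ifit1, was called higher at 3 h (1.56, SE 0.47, edgeR adjusted p = 0.0114) from 41 UMIs, with mice between 0 and 2.69 CPM against 0 to 0.699 CPM in control, and the call was lost without mouse 3 of the 3 h group (1.04).

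**Figure D2:**
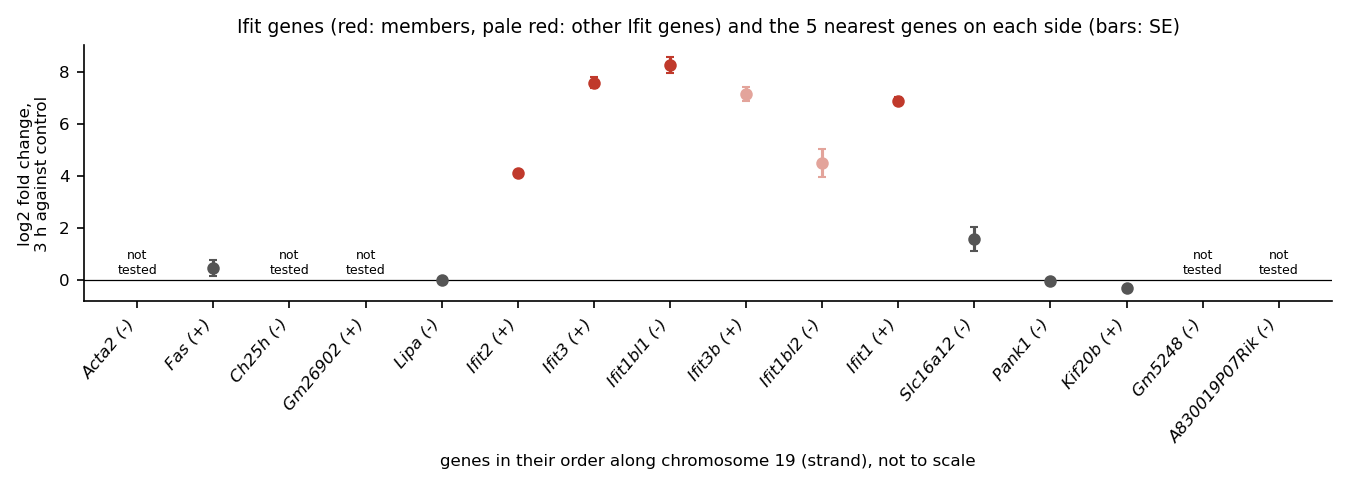
Log2 fold change at 3 h against control (points, with SE as bars) for the Ifit genes and the 5 nearest counted genes on each side in their order along the chromosome, with spacing not to scale. The 6 Ifit genes lie between 4.09 and 8.27, and the tested neighbours between -0.31 and 1.56.

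To compare cells of like type, each cell was placed in a lineage gate by the summed standardised log counts of marker genes, none of which is an Ifit gene. The gates covered 7207 cells, while 2839 cells fell in none. Mice with at least 10 cells in a gate entered its fit, which left control mouse 4 in the stem and erythroid gates only. A gate is a range of a score and not a cell type, and 851 cells (8.47%) lay near a limit. By the rule of the gates each gated cell scored highest on its own list. The medians there were 1.51 to 2.72 standardised units, and the monocyte gate also had a median of 1.04 on the neutrophil list. Median depth at 3 h differed between the gates, from 7875 UMIs per cell in the stem gate and 10923 in the lymphoid gate to 23220 in the monocyte and 24496 in the neutrophil gate.

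Of 28 pairs of member and gate, 26 were called higher at 3 h, and Ifit1bl1, with 3 and 20 UMIs at 3 h and 0 in control, could not be tested in the monocyte and basophil gates. In 4 of the called pairs, Ifit3 in the monocyte, erythroid and basophil gates and Ifit1bl1 in the megakaryocyte gate, control cells held 0 UMIs. They held 1 UMI of Ifit1 in the monocyte and basophil gates, of Ifit3 in the neutrophil gate and of Ifit1bl1 in the erythroid gate. Control UMIs numbered 2 for Ifit3 in the megakaryocyte gate and for Ifit1bl1 in the stem, lymphoid and neutrophil gates. Such pairs passed the filter on low counts only through the treated mice, so the count of 26 is a description and supports nothing further. Of all genes tested, 4.71% were called higher in the stem gate, 4.16% in the lymphoid gate, 3.38% in the neutrophil gate, 3.72% in the monocyte gate, 4.37% in the erythroid gate, 3.59% in the megakaryocyte gate and 3.27% in the basophil gate. Against control gates with 0 UMIs only a lower bound can be given, taken against 3 counts over the group. Ifit3 was thus at least 176-fold higher in the monocyte gate, at least 115-fold in the erythroid gate and at least 67.9-fold in the basophil gate.

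The range of mean levels over the gates at 3 h was wider for Ifit3 (35.9 to 1163 CPM) than for Ifit1 (125 to 867 CPM), a difference between genes that was not itself tested. In the stem gate, which was defined by Hlf, Mecom, Mllt3, Procr and Fgd5, Ifit3 was at 1302, 1223, 1065 and 1061 CPM in mice 1 to 4 and Ifit1 at 1011, 859, 827 and 769.7 CPM. In the lymphoid gate Ifit3 was at 518, 598, 621 and 768 CPM and Ifit1 at 459, 575, 495 and 495 CPM. The lowest sum of Ifit3 in both gates was thus 518 CPM, whereas in the other gates every sum of a mouse lay between 22.7 CPM, in a mouse of the neutrophil gate, and 127 CPM, in a mouse of the basophil gate.

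Ifit1 was more evenly spread. Its mean level in the erythroid gate was 454 CPM (SD 71.2, n = 4), in the megakaryocyte gate 444 CPM (SD 81.2), in the basophil gate 394 CPM (SD 102) and in the neutrophil gate 235 CPM (SD 26.8). In the order of means the stem gate was highest with no overlap with the lymphoid gate, neighbours from the lymphoid to the neutrophil gate overlapped, and the monocyte gate was lowest, at 125 CPM (SD 25.6), with no overlap. Counted per cell rather than as CPM, 7.12 Ifit1 UMIs were found in the mean stem gate cell, 7.43 in an erythroid gate cell, 5.69 in a neutrophil gate cell and 2.69 in a monocyte gate cell, while for Ifit3 the means were 9.51 in the stem gate, 7.29 in the lymphoid gate and 0.682 to 1.34 in the other 5. These counts are not scaled for depth. Median UMIs per cell at 3 h were 7875 in the stem, 13601 in the erythroid and 24496 in the neutrophil gate.

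**Figure D3:**
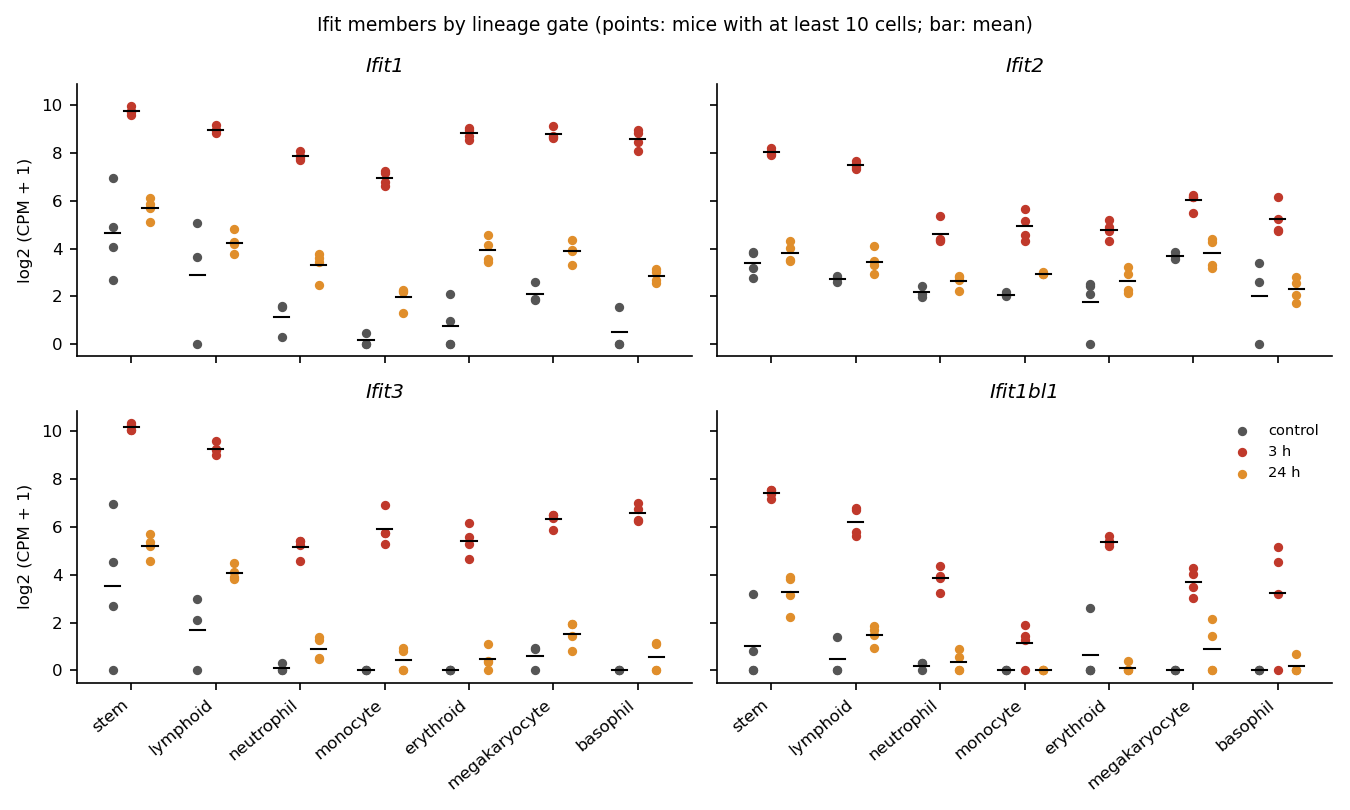
Level of each member as log2(CPM + 1) in the sums per mouse and lineage gate (points, mice with at least 10 cells) in control, at 3 h and at 24 h, with means as bars. At 3 h Ifit3 and Ifit2 form a high pair of gates, stem and lymphoid, and a lower group, while Ifit1 is high in all gates and lowest in the monocyte gate.

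Ifit2 and Ifit1bl1 shared the high levels in the stem and lymphoid gates. Ifit2 had 264 CPM in the stem gate (SD 23.7, n = 4), 178 CPM in the lymphoid gate (SD 20.2), 64.8 CPM in the megakaryocyte gate (SD 14.0) and means between 24.7 and 39.9 CPM in the other 4. Ifit1bl1 stood at 171 CPM in the stem gate (SD 22.02), 78.6 CPM in the lymphoid gate (SD 31.4) and 41.0 CPM in the erythroid gate (SD 5.12), and these 3 gates overlapped neither with each other nor with the rest. The erythroid gate, where Ifit2 and Ifit3 were among the lowest, was thus the third for Ifit1bl1. The monocyte gate held 3 Ifit1bl1 UMIs in 102 cells at 3 h and 0 in control, so no fold is given.

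A comparison of levels at 3 h within mice, chosen after these values were seen, gave the difference of each gate from the stem gate. With edgeR's quasi-likelihood test and the same thresholds all 4 members were lower in the neutrophil, monocyte, megakaryocyte and basophil gates, 3 of 4 in the erythroid gate and 1 of 4 (Ifit1bl1, -1.09) in the lymphoid gate. Ifit1bl1 held 3 UMIs in the monocyte, 20 in the basophil, 31 in the megakaryocyte and 47 in the neutrophil gate. In all of these gates it passed the filter on low counts only through the stem gate, so its calls there are a description. The share of all tested genes called lower than in the stem gate was 16.1% in the neutrophil, 16.4% in the monocyte, 8.12% in the megakaryocyte, 10.3% in the basophil, 16% in the erythroid and 4.33% in the lymphoid gate. For Ifit3 the differences were -4.96 in the neutrophil gate (SE 0.11), -4.79 in the erythroid gate (SE 0.13) and -0.92 in the lymphoid gate (SE 0.09). For Ifit1 they were -1.88 (SE 0.08), -0.93 (SE 0.09) and -0.81 (SE 0.09) in the same gates, and the lowest was -2.89 (SE 0.10) in the monocyte gate. Without TMM factors the only change of call was Ifit1 in the megakaryocyte gate, from -1.04 to -0.99.

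The proportion of Ifit3 to Ifit1 at 3 h was higher in the stem and lymphoid gates than in any other gate in every mouse. For each 100 Ifit1 UMIs, the stem gate held 129 to 142 Ifit3 UMIs and the lymphoid gate 104 to 155, against 6.44 to 13.5 in the erythroid gate, 9.64 to 20 in the neutrophil gate and 36.9 to 81.5 in the monocyte gate. The other members were less separate. Ifit2 overlapped between the stem (26.7 to 35.6) and monocyte gates (13.1 to 36.2), and Ifit1bl1 between the stem (16.4 to 22.6) and lymphoid gates (9.46 to 21.9). Ratios within a gate do not depend on the total behind a CPM, but the free RNA of a droplet library can add to them. Barcodes without a hashtag, at a median of 599 UMIs, held 72 Ifit1 and 18 Ifit3 UMIs at 3 h. Elane, a neutrophil granule gene, was detected in 23.0% of stem gate and 26.0% of erythroid gate cells of the 3 h library against 100% of neutrophil gate cells, whereas Klf1, an erythroid factor, was in 87.5% of erythroid gate cells and 0.820% of stem gate cells. The other neutrophil markers ran from 0% (Fcnb) to 85.7% (Prtn3) of these stem gate cells. Over all time points Elane was at 13109 CPM in its own gate and Klf1 at 199 CPM in its own. The part of free RNA in the lower Ifit levels was not tested.

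**Figure D4:**
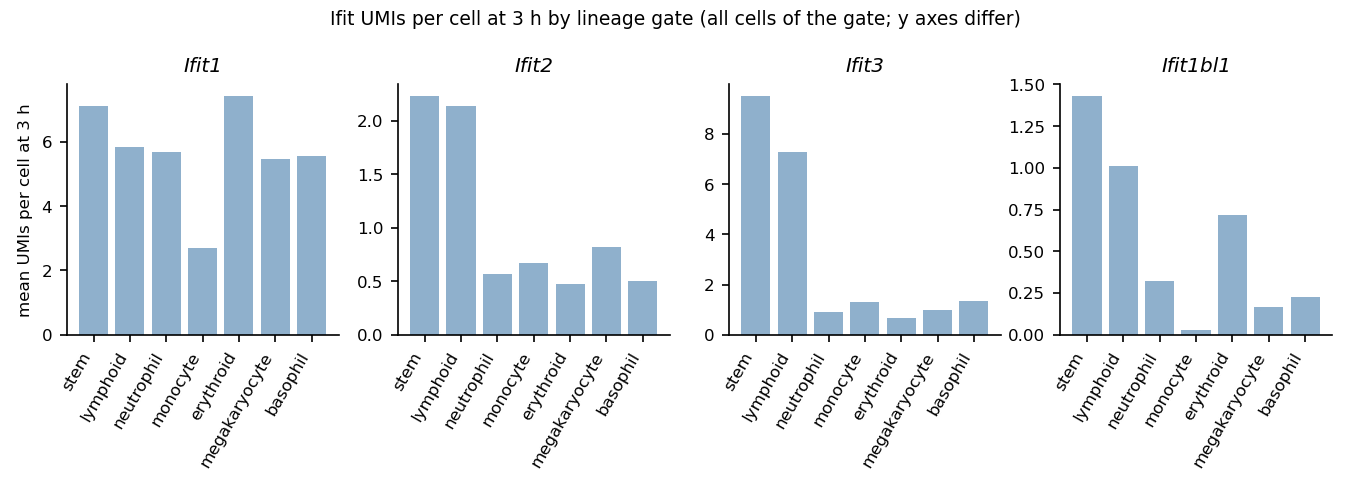
Mean number of UMIs per cell for each member at 3 h by lineage gate over all cells of the gate, with a separate axis from 0 for each gene. Ifit1 lies between 5.47 and 7.43 in 6 gates and at 2.69 in the monocyte gate, whereas Ifit2 and Ifit3 have 2 high gates. Counts are not scaled for depth, which differed between the gates.

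Control levels also differed between gates. In the stem gate Ifit1 was at 28.6, 15.9, 5.37 and 123 CPM in control mice 1 to 4, the last from 11 cells, and in the monocyte gate it totalled 1 UMI in 295 cells. Ifit3 was at 22.4, 0, 5.37 and 123 CPM in the stem gate and totalled 0 UMIs in the control monocyte, erythroid and basophil gates. Ifit2, in contrast, had control UMIs in all gates, from 3.13 pooled CPM in the monocyte gate to 11.6 in the megakaryocyte gate.

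The size of the 3 h rise was compared between the stem gate and each other gate by an interaction term in edgeR's quasi-likelihood test with the mouse as a block. Of 24 comparisons, 8 passed an adjusted p of 0.05. Of all tested genes 2.63% passed in the neutrophil, 3.28% in the monocyte, 1.43% in the erythroid, 0.408% in the megakaryocyte, 1.13% in the basophil and 0.241% in the lymphoid gate. The rise of Ifit2 was smaller than in the stem gate in the neutrophil gate (-2.0 on the log2 scale, SE 0.41), the monocyte gate (-1.55, SE 0.46), the erythroid gate (-1.97, SE 0.40) and the megakaryocyte gate (-2.22, SE 0.37). The rise of Ifit1 was larger in the neutrophil (1.57, SE 0.44), monocyte (3.43, SE 0.69), erythroid (2.59, SE 0.52) and basophil gates (3.37, SE 0.84), where control UMIs numbered 19, 1, 12 and 1. For Ifit1 neither these gates nor the stem gate passed the filter on low counts through control mice alone. These differences of Ifit1 are thus a description. Without control mouse 1, which held 37 of the 67 Ifit1 UMIs of the control stem gate, the neutrophil (0.33), monocyte (2.20) and basophil (4.95) differences of Ifit1 and the monocyte difference of Ifit2 (-1.71) no longer passed. Then 5 of 24 passed, 4 of them among the 8, and the lymphoid difference of Ifit1 (-1.94, edgeR adjusted p = 0.0390) was the other. Some losses were not tied to this mouse. The monocyte difference of Ifit2 also failed with scaling by library size alone (-1.38), with a stricter gate cutoff (-1.73) and without most single mice. That of Ifit1 failed in the neutrophil gate without mouse 2, 3 or 4 of the 3 h group (1.51, 1.60 and 1.55) and in the basophil gate without control mouse 2 or 3 (2.72 and 3.29). With the stricter cutoff the neutrophil (1.10), erythroid (1.81) and basophil (2.22) differences of Ifit1 did not pass. No interaction of Ifit3 or Ifit1bl1 passed, with control counts of 0 to 2 in every gate but, for Ifit3, the stem and lymphoid gates. For Ifit1bl1 the stem gate, the reference of each comparison, held 2 control UMIs, and the SE reached 26.4 in the monocyte gate.

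Within gates, 8 of 26 tests were called higher at 24 h. Of all tested genes 0.586% were called higher in the stem, 0.698% in the lymphoid, 1.22% in the neutrophil, 0.928% in the monocyte, 1.55% in the erythroid, 0.59% in the megakaryocyte and 0.567% in the basophil gate. These tests were added after the values were seen. Ifit1 was called in 5 gates, from a log2 fold change of 1.24 in the stem gate (SE 0.29, edgeR adjusted p = 0.0066) to 4.11 in the monocyte gate (SE 0.74, edgeR adjusted p = 0.000225). Ifit3 was called in the lymphoid (2.08, SE 0.41) and neutrophil gates (3.20, SE 0.91), Ifit1bl1 in the stem gate (3.74, SE 0.67) and Ifit2 in none. Control cells held 1 UMI of Ifit1 in the monocyte gate, 1 of Ifit3 in the neutrophil gate and 2 of Ifit1bl1 in the stem gate. In none of the 8 called pairs did the control mice alone pass the filter on low counts, which the pairs passed through treated mice. The 8 calls are thus a description, and in the pairs with 1 or 2 control UMIs the sizes of the fold changes rest on these few UMIs. Ifit3 in the stem gate was at 22.5, 35.5, 40.1 and 51.3 CPM at 24 h and was not called with control mouse 4 (1.19, edgeR adjusted p = 0.0666) but was without it (1.69, edgeR adjusted p = 0.000714).

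At 72 h edgeR called 0 members higher in any gate, 1 test passed in that direction at an unadjusted p under 0.05, and 3 were called lower. How many of all genes reached this unadjusted p within a gate was not counted. Of all tested genes, in the order stem, lymphoid, neutrophil, monocyte, erythroid, megakaryocyte and basophil gate, 0.318%, 0.473%, 0.604%, 0.583%, 0.934%, 0.509% and 0.484% were called higher and 0.513%, 0.296%, 0.437%, 0.488%, 0.323%, 0.486% and 0.47% lower. Ifit3 was lower in the stem gate (-3.54, SE 0.82, edgeR adjusted p = 0.00525) and in the lymphoid gate (edgeR adjusted p = 0.0436), where it totalled 0 UMIs in 215 cells against 13 in 233 control cells, at least 3.91-fold lower against a floor of 3 counts over the 72 h group. Ifit1 was lower in the lymphoid gate (-2.74, SE 0.72, edgeR adjusted p = 0.0223), from 57 UMIs in control to 7 at 72 h. A single cell of control mouse 3 held 31 of these 57, and the next cells held 9 (mouse 2) and 6 (mouse 3). Control mouse 1 had 0 UMIs, as had mice 3 and 4 of the 72 h group, so the groups overlapped. Of these fits only that of the stem gate held control mouse 4, and without it Ifit3 there was at -3.04 (edgeR adjusted p = 0.00830). In both gates Ifit3 passed the filter on low counts only through the 3 h and 24 h mice, so its calls there are a description. Neither the control mice nor the 72 h mice alone passed it for Ifit1 in the lymphoid gate, so that call is a description too.

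The share of cells with a UMI was compared after each cell was thinned to 5000 UMIs. The mean share for Ifit1 was 2.32% in control mice (SD 0.845, n = 4), 78.4% at 3 h (SD 2.28), 8.06% at 24 h (SD 1.24) and 2.20% at 72 h (SD 1.03). The corresponding means were 2.61%, 30.4%, 4.25% and 3.35% for Ifit2, 0.841%, 47.8%, 2.83% and 0.153% for Ifit3 and 0.0615%, 18.5%, 0.991% and 0.364% for Ifit1bl1. Unthinned, Ifit1 was detected in 92.7% to 93.7% of the cells of the 3 h mice and in 3.52% to 5.17% of those of the control mice.

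The share of each member was higher in treated than in control mice at 3 h and at 24 h, each by a two-sided exact permutation test with p = 0.0286, the smallest that 4 against 4 mice allow, and 0.0381 adjusted over 12 tests. How often shares of other genes reach this p was not computed. At 72 h the tests of Ifit1, Ifit2 and Ifit3 did not pass (exact permutation adjusted p = 0.857, 0.125 and 0.125). Ifit1bl1 passed at 72 h at the same smallest p, but its share rested on 14 UMIs and was lower than in control without thinning, by 0.54 percentage points, so no direction is read from it. Unthinned, the share was 3.45% in control mouse 4, from 2 UMIs in 58 cells. It was 0.121% to 0.393% in the other control mice and 0.258% to 0.654% in the 72 h mice. At 24 h the share of Ifit1bl1 did not pass without thinning, and those of Ifit1bl1 and Ifit3 did not when cells were thinned to 10000 UMIs.

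The members were found in the same cells at 3 h more than 1 at a time, most of all in the stem gate. In thinned control cells 95.2% showed no member, and at 3 h 15.3% did (14.4% to 16.3% over the mice). All 4 members were detected in 9.88% of the 3 h cells (7.38% to 13.5% over the mice), and in 0 of 2439 control cells, which allows a share of up to 0.123%. In the stem gate 69 of 224 cells held all 4 (30.8%, 17.3% to 41.2% over the mice) and 1 cell held none. In the lymphoid gate 13.6% held all 4 and 6.4% none, in the erythroid gate 2.66% and 14.4%, and in the monocyte gate 0% and 44%. The thinning puts the gates on 1 depth, so these shares are of cells with equal UMIs, although the stem gate cells had the fewest UMIs before thinning and 20 of its 244 cells were too shallow to enter.

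**Figure D5:**
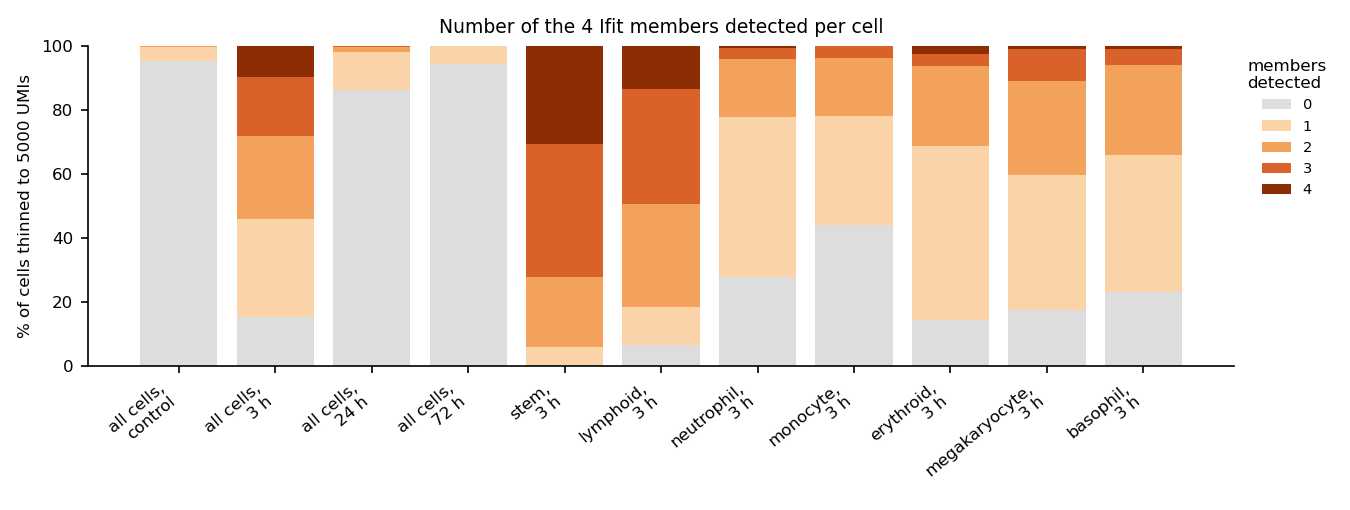
Share of cells, thinned to 5000 UMIs, in which 0 to 4 of the Ifit members were detected, for all kept cells of each group and for each lineage gate at 3 h. Cells without a member make up 95.2% of control and 15.3% of 3 h cells, and the stem gate at 3 h has the largest part with all 4.

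Control UMIs of Ifit1 and Ifit3 were concentrated in a few cells, and those of Ifit2 were not. The 217 control UMIs of Ifit1 lay in 96 of 2474 cells, and 11 cells with at least 5 of them, a limit set after the values were seen, held 102 (47.0%). These 11 cells came from all 4 control mice, 3 from the stem gate, 3 from the lymphoid gate and 3 from no gate, and the highest, a lymphoid gate cell of mouse 3, held 31. The same cells held 55 of the 83 control UMIs of Ifit3 (66.3%), and 7 of the 11 had at least 1. Ifit2 was spread over 251 control cells with at most 4 UMIs in any. In the stem gate of control mouse 1, a cell with 20 and a cell with 6 Ifit3 UMIs stood out among 29 in all, and in that of mouse 4 a single cell held 14 of 15. For Ifit1, single control cells of the stem gate held 11 (mouse 4), 8 and 8 (mouse 1) of its 67 UMIs. The control level of Ifit3, its difference at 72 h and the 72 h difference of Ifit1 in the lymphoid gate therefore rest on few cells. So does part of the stem gate reference of the Ifit1 interactions, which mouse 4 entered for the erythroid gate only.

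Other genes of the interferon pathway were read from lists by role. Stat2, which encodes a subunit of ISGF3, was called higher at 3 h (2.88, SE 0.12), while the receptor chain Ifnar1 (-0.17, edgeR adjusted p = 0.163) and its kinase Tyk2 (-0.35, edgeR adjusted p = 0.0728) were not called. The median over all tested genes, beside which the medians of the lists are to be read, was -0.03.

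Of 8 RNA sensors and adaptors tested, 5 were called higher, led by the helicase sensors Dhx58 (3.87, SE 0.08) and Ddx58, which encodes RIG-I (3.82, SE 0.09), and the adaptors Mavs (-0.15, SE 0.13) and Tmem173 (-0.27, SE 0.07) were not called. The list median was 2.53. Among 10 cap enzymes and translation factors 2 were called, Eif2ak2, the RNA-dependent kinase PKR (2.82, SE 0.06), and Cmtr1, which methylates the cap ribose that IFIT1 reads (1.59, SE 0.17). The initiation factors Eif3b (-0.09, SE 0.05) and Eif4g1 (-0.11, SE 0.05) were not, and the list median was 0.07.

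All 16 other antiviral effectors that were tested rose, with a list median of 4.78. Mx1, a GTPase against RNA viruses (6.80, SE 0.17), and Rsad2, which encodes viperin (6.21, SE 0.16), had the largest fold changes, and Ifitm3 (2.76, SE 0.05) and Bst2 (2.61, SE 0.05), membrane proteins that act on virus entry and release, the smallest. The 4 feedback genes all rose, Isg15 (6.11, SE 0.14) and its protease Usp18 (5.57, SE 0.08) most and the cytokine signal inhibitors Socs1 (2.97, SE 0.14) and Socs3 (2.01, SE 0.26) least, with a median of 4.27. Of 6 IRF factors Irf7 (5.53, SE 0.14) and Irf1 (1.18, SE 0.09) were higher, Irf3 (-0.17, SE 0.07) was not called, and Irf8, a myeloid lineage factor, was lower (-1.12, SE 0.10).

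At 24 h the calls fell to 3 of 8 for the sensors, 0 of 10 for the cap enzymes and translation factors, 14 of 16 for the effectors, 2 of 4 for feedback and 1 of 6 for the IRF factors. At 72 h none of these genes was called higher and Oas2 alone was called lower. The lists share Isg15 and Ifih1 between them and were chosen with earlier results of these data known.

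The genes whose level ran most like that of a member were sought over 107 sums of mouse and gate from 16 mice, across 12041 other genes. For Ifit1 these were Rsad2 (r = 0.97), Isg15 (0.96) and Xaf1 (0.96), for Ifit2 Ifit3b (0.89), Herc6 (0.89) and Ifit3 (0.89), for Ifit3 Ifit3b (0.96), Trafd1 (0.93) and Dtx3l (0.93), and for Ifit1bl1 Ifit3b (0.90), Ifit3 (0.89) and Tgtp1 (0.89). The sums share mice and libraries and are set mainly by the 3 h group, so the correlations are given as a description. None of the 3 genes most like Ifit1 was another Ifit gene.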

How the data were processed

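Single-cell RNA-seq libraries were made with the 10x Chromium 3' v3.1 kit, and the deposited matrices hold UMI counts per gene and barcode that the authors made with Cell Ranger 3.1.0 against mm10. The submitters' processing notes also name Seurat, and a hashtag call for each barcode was deposited beside the counts. Cells with 1 hashtag, at most 5% mitochondrial UMIs and at least 700 genes were kept here. Barcodes with several hashtags were removed, while doublets of cells from the same mouse remain.

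Counts were summed per mouse, the replicate, and tested in 1 fit of 16 mice with edgeR 4.0.16 (R 4.3.3, TMM factors, filterByExpr, quasi-likelihood F test, Benjamini-Hochberg over all tested genes). SE is the log2 fold change divided by the root of F. DESeq2 1.42.0 was an alternative. Scripts ran in Python 3.11.15 and were tested on simulated counts.

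Each cell was scored for 7 marker lists by log counts per 10000, standardised, and placed in the gate of its highest score if this was at least 0.5 and led the next by 0.5. Sums per mouse and gate needed 10 cells. Shares of cells were taken after thinning to 5000 UMIs and compared by exact permutation of mice. Intervals, and floors of 3 counts, cover counting error only. Depth per mouse ran from 1102706 to 26446327 UMIs.

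The genes named besides the members are the 3 most correlated with each member, the 5 nearest counted genes on each side, the other Ifit genes, and the largest and smallest 3 h fold changes of each list. Members and lists were chosen with earlier results of these data known. Hashtag numbers 1 to 4 name mice and were not used as pairs. Of genes shown as Ddx58 and Tmem173, the newer symbols were not matched, nor was Mx2. Alternatives were scaling, test, filters, gate cutoff, depth and leaving out each mouse. The list of receptor and ISGF3 genes is not reported here as a whole.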

Additional observations from a re-analysis of the deposited data

Results flagged for a closer look

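Among 32 groups of 4 mice tested for a mouse far from the others, 4 were flagged, where chance flags about 1 group in 20. Control mouse 4, with 58 cells, stood apart for Ifit2 (0.907 CPM, from 1 UMI), Ifit3 (13.6 CPM, 15 UMIs) and Ifit1bl1 (1.81 CPM, 2 UMIs), low for the first and high for the others. Mouse 2 of the 72 h group was below its group for Ifit2, at 5.98 CPM.

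The 3 h rise differed between the stem gate and another gate by an interaction test in 8 comparisons. It was smaller than in the stem gate for Ifit2 in the neutrophil (-2.0), monocyte (-1.55), erythroid (-1.97) and megakaryocyte gates (-2.22, log2). It was larger for Ifit1 in the neutrophil (1.57), monocyte (3.43), erythroid (2.59) and basophil gates (3.37). Over 18 alternatives the edgeR adjusted p of these ran from 4.19e-05 to 0.0402 for Ifit2 in the neutrophil gate, from 0.000195 to 0.0149 in the megakaryocyte gate and from 0.000638 to 0.0477 in the erythroid gate. It reached 0.16 for Ifit2 in the monocyte gate and, for Ifit1, 0.885 in the neutrophil, 0.239 in the monocyte, 0.111 in the erythroid and 0.351 in the basophil gate. The differences of Ifit1 are a description, since it did not pass the filter on low counts through control mice alone.

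Members were also detected in barcodes that were left out. In the 3 h library, 422 barcodes without a hashtag held Ifit1 at 212 CPM, Ifit2 at 26.4 CPM, Ifit3 at 52.9 CPM and Ifit1bl1 at 8.82 CPM, against 10.0 CPM of Ifit1, 6.01 CPM of Ifit2 and 0 UMIs of the other members in the control library. The 67 barcodes with several hashtags held 428, 62.9, 286 and 60.2 CPM of Ifit1, Ifit2, Ifit3 and Ifit1bl1, against 3.16, 4.42, 0 and 0.316 CPM in control. The 304 barcodes with 1 hashtag that failed the limits on genes or mitochondrial UMIs held 207, 38.9, 82.1 and 8.64 CPM, against 1.04, 4.16, 2.08 and 0 CPM. Many of these values rest on few UMIs. At 3 h Ifit2 and Ifit1bl1 had 9 and 3 UMIs without a hashtag and 18 and 4 in the failed barcodes. In control Ifit1 had 5 UMIs without a hashtag, 10 with several and 1 in the failed barcodes, and Ifit2 had 3, 14 and 4.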

How the results depend on the processing

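The counts of members called were 4 at 3 h, 0 at 72 h and 4 lower from 3 h to 24 h under all 24 alternatives run. With DESeq2 2 members were called at 24 h in place of 3, and from 24 h to 72 h 2 in place of 3 when only those time points were fitted. The 26 pairs of member and gate called higher at 3 h ranged from 25 to 27. The 8 interactions between gates became 4 with a stricter gate cutoff, and between 5 and 8 when each mouse was left out in turn, the lowest without control mouse 1, when 4 of the 8 passed and 1 was gained. Hashtag numbers paired no mice in the labels. Deviations had a median r of 0.038 over 24 pairs within a number and -0.012 over 72 between numbers, with highest values of 0.344 and 0.266. Although fewer pairs share a number, 8 of 16 mice were closest to their own, and whether a number carries a shared effect was not tested. With the number as a replicate block the log2 fold change of Ifit1 at 3 h was 6.88 and the counts of calls were 4, 3 and 0 at 3, 24 and 72 h.

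Some values turned in sign. Ifit1bl2 at 72 h, from 3 UMIs, was 0.028 with the replicate block, 0.44 and 0.31 without mouse 1 or 4 of the 72 h group and 0.33 without control mouse 3, and it ranged from -0.99 to 0.44 over the mice left out. Against 24 h it was 0.12 without mouse 1 of the 72 h group, with a range of -1.30 to 0.12. Lipa at 3 h was 0.015 without mouse 1, with a range of -0.090 to 0.015. The share of Ifit1 at 72 h minus control was 0.37 percentage points when thinned to 10000 UMIs, 0.27 without control mouse 4 and 0.32 without mouse 3 of the 72 h group, with -0.52 as the lowest over the mice left out, and that of Ifit1bl1 was -0.54 without thinning and -0.80 at 10000 UMIs. In the erythroid gate, without control mouse 4, Ifit1bl1 was 1.27 at 24 h and 0 at 72 h. The cause was not tested. Depth limits Ifit3 and Ifit1bl1 most, with 12 and 14 UMIs at 72 h and 9 Ifit1bl1 UMIs in control.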
